A study of Mus musculus with 8 samples.

Results

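The genes described here belong to the amino acid branch of the integrated stress response, which runs through the transcription factor ATF4. The 10 members were chosen by gene name, with earlier results of these data known. They include the factors Atf4, Atf5 and Ddit3, the feedback regulator Trib3 and the metabolic targets Asns, Slc6a9 and Chac1. The others are the growth regulators Sesn2 and Ddit4 and the lipoprotein receptor Vldlr. The members are 10 of the 35072 genes in the deposited table, each with 1 entry. All 10 are among the 13299 genes kept by a filter on low counts. When amino acids run short, the kinase GCN2 phosphorylates the initiation factor eIF2, general translation slows, and translation of the Atf4 mRNA increases. ATF4 protein then activates genes for amino acid synthesis, uptake and stress signalling, and activated T cells draw on this programme while they grow. The translational step is not visible in mRNA counts.

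The 8 libraries are polyA RNA of wildtype mouse CD8 T cells from spleen and lymph nodes, activated as naive cells with antibodies to CD3 and CD28 plus interleukin-12 for 18 h. For the next 24 h, 4 samples received 2 mM formate, a one-carbon compound that cells also make from serine (title codes 2, 8, 11 and 14), and 4 received PBS as vehicle (title codes 1, 7, 10 and 13). Neighbouring codes make 4 pairs of a formate and a PBS library (2 and 1, 8 and 7, 11 and 10, 14 and 13), although no label says that neighbours belong together, and none gives strain, age or whether replicates are separate animals or cultures. The comparison asks how the members' mRNA differed with formate, in each pair and over the groups.

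Library totals ranged from 29361986 to 41393093 estimated counts, and values below are CPM (counts over the TMM-scaled library size), where 3 counts equal at most 0.101 CPM. The first principal component, with 51.2% of the variance, set the libraries of codes 10 to 14 apart from those of codes 1 to 8. No label names these 2 library sets. Of 7 T cell markers listed for CD8 T cells (Cd3e, Cd3d, Cd3g, Cd8a, Cd8b1, Trac and Lck), 6, all but Trac, are in the table. Their sum was 1851 to 2033 CPM with formate and 1796 to 2276 CPM with PBS. By set that sum was 1947 to 2276 CPM in codes 10 to 14 and 1796 to 1946 CPM in codes 1 to 8. Summed CD4 T cell, B cell, NK cell and myeloid or dendritic markers reached at most 22.0, 25.6, 0.228 and 7.12 CPM in any library, and 4 of 4 NK cell and 3 of 7 myeloid markers (Csf1r, Adgre1 and Siglech) were at 0 in some. The myeloid sum was 3.88 to 5.04 CPM in codes 10 to 14 and 4.83 to 7.12 CPM in codes 1 to 8. The mitochondrial share of counts was 0.702% ± 0.152 with formate and 0.462% ± 0.0705 with PBS (SD, n = 4 each), and it was higher with formate in 4 of 4 pairs. The part of cell makeup or of the mitochondrial share in the members' values was not tested, and in these bulk samples fewer expressing cells and less RNA per cell cannot be told apart.

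ATF4, paired with a C/EBP factor, binds a composite element whose core is written here as TGATGNAA. Promoter windows from 250 bases before to 50 bases after the start were taken from RefSeq (GRCm38.p6) and searched on both strands; all 10 members matched, with 14 windows. The core occurred in 4 of the members' 14 windows (those of Asns, Chac1, Trib3 and Vldlr) and in 3.97% of all 32851 windows. The other members, Slc6a9 among them, had no core in their windows. The members were listed as ATF4 pathway genes, so nothing is read from their share of windows. Sequence is shown for the 3 members whose core lies before a RefSeq start, to let the letters be compared. Capitals mark the core, whose first base lies 23 bases before the start in Asns (position 7693209), 193 in Chac1 (119351242) and 200 before one of the starts of Vldlr (27217020). In Chac1 and Vldlr it reads on the opposite strand. The stretches of Asns and Vldlr lie inside the gene as GENCODE draws it below, where the gene starts further upstream.
Asns, chr6:7693214-7693243, minus strand: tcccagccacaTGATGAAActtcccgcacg
Chac1, chr2:119351003-119351102, plus strand: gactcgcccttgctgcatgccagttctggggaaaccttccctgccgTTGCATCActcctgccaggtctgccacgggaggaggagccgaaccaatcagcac
Vldlr, chr19:27216809-27216838, plus strand: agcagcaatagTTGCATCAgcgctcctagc
In Trib3 the core begins at base 15 of the transcript that RefSeq starts at 152344060, which is upstream of the GENCODE start given below. A related core, TGACGCAA, was found in 0.490% of all windows and among the members in Chac1, where it begins 250 bases before the start, ahead of the stretch shown and not overlapping the capitals. These matches describe letters in a window and not bound sites.

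The members were proposed with earlier results of formate against PBS known, so their values under that contrast, pair by pair and set by set, are a description with no test. Asns, Slc6a9 and Chac1 were higher with formate in all 4 pairs, with ratios of 2.65 to 4.78 in codes 1 to 8 and of 1.15 to 1.86 in codes 10 to 14. Trib3 and Vldlr were over 2-fold higher in codes 1 to 8, with ratios of 0.761 to 1.15 in codes 10 to 14. Atf4 itself, Atf5, Ddit3, Sesn2 and Ddit4 differed by less than 1.5 times in every pair.

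**Figure D1:**
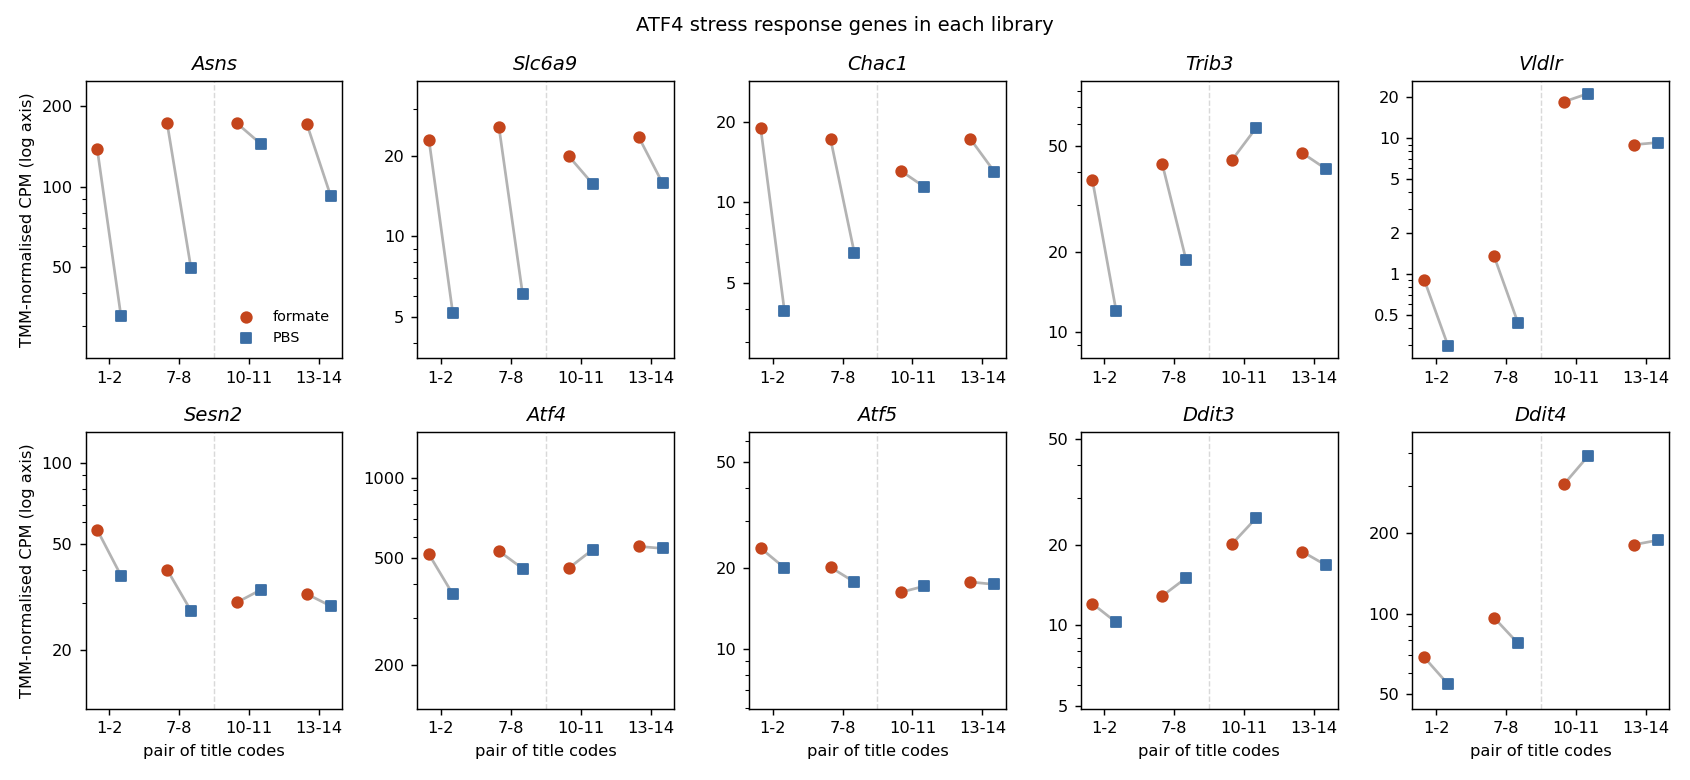
CPM of each of the 10 members in each library (log axis), by pair of title codes (x axis), formate (red circles) left of PBS (blue squares), with lines joining a pair and a dashed line between the library sets. For Asns, Slc6a9, Chac1 and Trib3 the 4 formate libraries lie close together, while the PBS libraries of codes 10 and 13 lie above those of codes 1 and 7.

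Asns, the synthetase that makes asparagine from aspartate (GRCm38 chr6:7675169-7693254, minus strand), measured 138, 173, 172 and 171 CPM in the formate libraries of codes 2, 8, 11 and 14. Its PBS libraries of codes 1, 7, 10 and 13 measured 32.8, 49.7, 144 and 92.0 CPM. The formate libraries are nearly level with each other and the PBS libraries are not, and the groups overlap because PBS code 10 lies above formate code 2. Means were 164 ± 16.8 CPM with formate and 79.7 ± 49.8 CPM with PBS (SD, n = 4 each), and formate stood over PBS by 4.22, 3.47, 1.19 and 1.86 times in the pairs of codes 1, 7, 10 and 13.

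Slc6a9, the plasma membrane glycine transporter GlyT1 (chr4:117834506-117875198, plus strand), was also lowest in the PBS libraries of codes 1 and 7. It measured 23.0, 25.8, 19.97 and 23.6 CPM with formate (codes 2, 8, 11 and 14), against 5.19, 6.08, 15.7 and 15.8 CPM with PBS (codes 1, 7, 10 and 13). Every formate library lay above every PBS library, and the gap was narrow in codes 10 to 14, where the ratios were 1.27 and 1.49 after 4.40 and 4.21 in codes 1 to 8. Slc6a9 overlaps B4galt2 and Ccdc24 on the other strand, and its estimates are not whole numbers in 8 of 8 libraries, so its level is uncertain to the extent that reads were shared.

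Chac1, a glutathione-degrading enzyme and a sensitive ATF4 target (chr2:119351229-119354381, plus strand), measured 18.9, 17.2, 13.1 and 17.2 CPM with formate and 3.92, 6.45, 11.4 and 13.02 CPM with PBS, in the same order of codes. The groups do not overlap, but formate code 11 lies next to PBS code 13. The ratios were 4.78, 2.65, 1.15 and 1.32 over the 4 pairs. Over all 13299 genes, 2.44% had every formate library above every PBS library, and 2 members, Chac1 and Slc6a9, are among them; the reverse held for 1.85% of all genes and no member.

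Trib3, a pseudokinase that binds ATF4 and dampens it (chr2:152337422-152344032, minus strand), measured 37.1, 42.5, 44.3 and 46.9 CPM with formate, against 12.0, 18.6, 58.2 and 40.9 CPM with PBS. With PBS the libraries of codes 10 and 13 lay far above those of codes 1 and 7, and code 10 exceeded all formate libraries. Formate stood over PBS by 3.08, 2.28, 0.761 and 1.15 times, so the pair of codes 10 and 11 ran the other way.

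Vldlr, the very low density lipoprotein receptor (chr19:27216484-27254231, plus strand), measured 0.910, 1.35, 18.6 and 8.98 CPM with formate, against 0.297, 0.439, 21.3 and 9.31 CPM with PBS. Its level differed between the sets in both groups far more than between formate and PBS. In codes 1 to 8 it rests on 35 and 41 counts with formate against 11 and 13 counts with PBS. The pair ratios were 2.73, 2.84, 0.872 and 0.964.

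Among the factors, Atf4 (chr15:80255184-80257541, plus strand) measured 518, 533, 459.7 and 554 CPM with formate and 368, 458, 539 and 545 CPM with PBS. The groups overlap, and the lowest library is the PBS library of code 1. On the log2 scale formate minus PBS was 0.49, 0.22, -0.23 and 0.02 in the 4 pairs. Atf5, a related factor that is also controlled through eIF2 (chr7:44812256-44816658, minus strand), averaged 19.5 ± 3.28 CPM with formate and 18.1 ± 1.35 CPM with PBS. It overlaps Il4i1 and Nup62 on the other strand and holds non-whole estimates in 8 of 8 libraries. Ddit3, which encodes the death-promoting factor CHOP (chr10:127290774-127296288, plus strand), averaged 16.0 ± 4.14 CPM with formate and 16.8 ± 6.23 CPM with PBS, with pair values of 0.23, -0.22, -0.32 and 0.17 on the log2 scale; it overlaps Mars and Gm4189 on the other strand and 1 further annotated entry on its own, with non-whole estimates in 1 of 8 libraries. Ddit3 is the one member whose signed formate difference was not higher in both pairs of codes 1 to 8 than in both of codes 10 to 14.

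The growth regulators also overlap between groups. Sesn2, a leucine sensor that restrains mTORC1 (chr4:132492032-132510501, minus strand), measured 56.3, 39.9, 30.2 and 32.4 CPM with formate, against 38.0, 28.1, 33.6 and 29.2 CPM with PBS. Its highest library was formate code 2, and its pair values were 0.57, 0.51, -0.16 and 0.15 on the log2 scale. It overlaps Gm12981 on its own strand, and its estimates were whole in all 8 libraries. Ddit4, which encodes REDD1, an mTORC1 inhibitor that hypoxia also induces (chr10:59949669-59951834, minus strand), measured 68.8, 96.7, 306 and 181 CPM with formate and 54.6, 77.6, 388 and 189 CPM with PBS. As with Vldlr, every library of codes 10 to 14 lay above every library of codes 1 to 8, and the groups overlap.

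**Figure D2:**
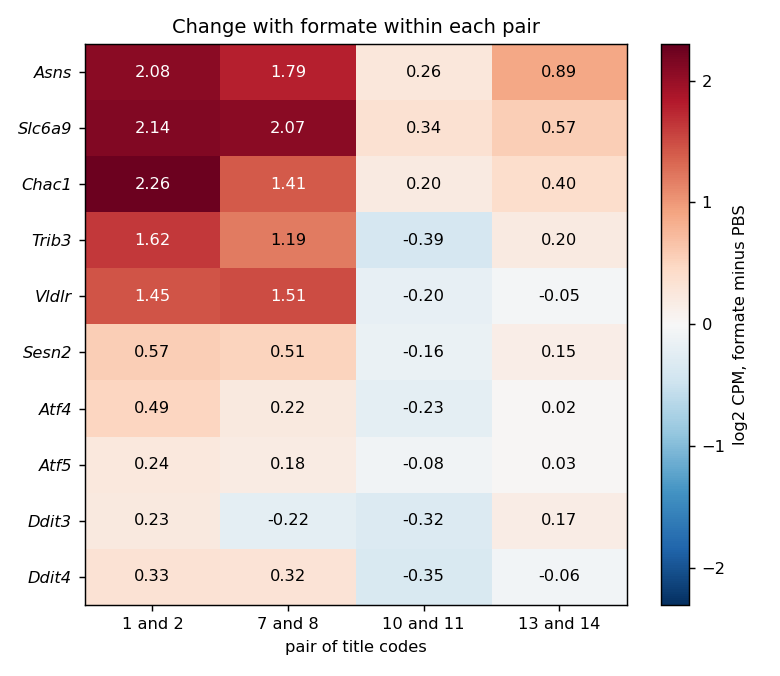
Heat map of the log2 difference of formate minus PBS for each member (rows) in each of the 4 pairs (columns), from log2 CPM with a prior count of 2; red is higher with formate and blue lower. The members' medians are 1.01, 0.85, -0.18 and 0.16 in the pairs of codes 1, 7, 10 and 13, with Asns, Slc6a9 and Chac1 above 0 in all 4.

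The members' median pair differences were 1.01 and 0.85 in codes 1 to 8 and -0.18 and 0.16 in codes 10 to 14 on the log2 scale; over all 13299 genes these medians were 0.01, 0.00, -0.02 and -0.03. In the pair of codes 1 and 2, 5 members (Trib3, Asns, Chac1, Slc6a9 and Vldlr) were over 2-fold higher with formate, where 2.85% of all genes were. The same 5 passed that fold in the pair of codes 7 and 8, with 3.1% of all genes. No member did in the pairs of codes 10 and 11 (2.61% of all genes) or 13 and 14 (2.04%), and none was over 2-fold lower in any pair, where 1.08%, 1.53%, 1.32% and 1.14% of all genes were. By formate difference among the 9423 genes that averaged 5 CPM or more, Chac1, Slc6a9, Asns and Trib3 held ranks 5, 6, 8 and 11 in the pair of codes 1 and 2, and ranks 20, 8, 12 and 24 in the pair of codes 7 and 8. In the pair of codes 10 and 11 their ranks were 1137, 406, 793 and 9225, and in the pair of codes 13 and 14 they were 317, 55, 10 and 1484. Vldlr is left out of this order because it averages 5 CPM only through the libraries of codes 10 to 14.

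For 9 of 10 members the signed formate difference was higher in both pairs of codes 1 to 8 than in both of codes 10 to 14. The share of all genes was 22.3%. Higher values in all 4 pairs were seen for 3 members, against 16% of all genes. The 2 members that were higher with formate in both pairs of codes 1 to 8 and lower in both pairs of codes 10 to 14 were Vldlr and Ddit4, a pattern of 4.67% of all genes. The rule that chose the members used this contrast, so nothing is read from these shares.

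For Asns, Slc6a9, Chac1 and Trib3 the sets lay further apart in the PBS libraries than in the formate libraries. Mean CPM of codes 10 to 14 over codes 1 to 8 was 1.10 for Asns with formate and 2.87 with PBS. The same ratio was 0.892 with formate and 2.80 with PBS for Slc6a9, 0.841 with formate and 2.36 with PBS for Chac1, and 1.15 with formate and 3.24 with PBS for Trib3. For Atf5 and Sesn2 it was 0.774 and 0.650 with formate, against 0.913 and 0.951 with PBS. For these 4 genes the PBS libraries of codes 1 and 7 were the lowest of the 8. Across the 4 formate libraries the highest was 1.25 times the lowest for Asns, against 4.41 times across the PBS libraries. The sets also lay apart with formate for Vldlr and Ddit4, whose ratios of codes 10 to 14 over codes 1 to 8 were 12.2 and 2.94 with formate, against 41.6 and 4.37 with PBS. Both PBS libraries of codes 10 to 14 lay above both of codes 1 to 8 for 8 members (31.7% of all genes), all but Atf5 and Sesn2. The same held among formate libraries for 4 members (31% of all genes).

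**Figure D3:**
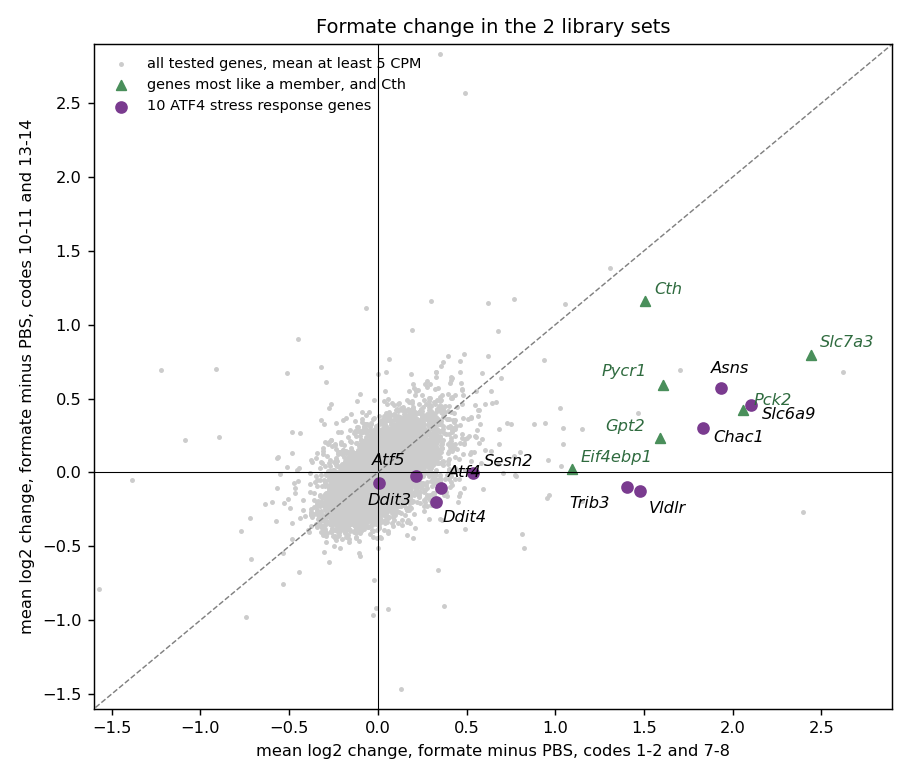
Mean log2 difference of formate minus PBS in the pairs of codes 1 to 8 (x axis) and of codes 10 to 14 (y axis) for the 9423 genes that averaged 5 CPM or more, with the members as purple circles, Cth and the genes nearest to Asns, Slc6a9 or Chac1 as green triangles, and a dashed line of equal differences; 6 genes lie outside the axes, and Vldlr averages 5 CPM only through codes 10 to 14. Asns, Slc6a9, Chac1, Trib3 and Vldlr sit far right of 0 and under the diagonal.

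In the edgeR quasi-likelihood fit of the 4 formate against the 4 PBS libraries, 0 of 10 members passed an adjusted p of 0.05, where 0.00752% of all genes were called higher (1 gene) and 0% lower. At an unadjusted p under 0.05 that fit held 634 of the 13299 genes, among them 3 of the 10 members (Asns, Chac1 and Slc6a9). The members were chosen with this contrast known, so nothing is read from that count. DESeq2 without the block called 12 genes and none of the members. With the pairs as a block, 5.35% of all genes were called higher and 7.52% lower (711 and 1000 genes, or 832 and 736 with upper quartile scaling, 1048 and 539 with library size only, and 402 and 958 with GC offsets), and again 0 members, in a fit where 3761 genes and no member had an unadjusted p under 0.05. DESeq2 with the block placed Asns and Slc6a9 past the threshold. The fitted log2 differences with the block were 1.23 (SE 0.42) for Asns, 1.22 (SE 0.47) for Slc6a9, 1.02 (SE 0.46) for Chac1 and 0.61 (SE 0.45) for Trib3. The other 6 members lay between -0.04 (Ddit3) and 0.27 (Sesn2). Fitted within codes 1 to 8, Asns was 1.91 (SE 0.22), Slc6a9 2.11 (SE 0.15) and Chac1 1.80 (SE 0.24), and within codes 10 to 14 they were 0.55 (SE 0.21), 0.48 (SE 0.14) and 0.33 (SE 0.19).

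No label names the library sets, which part on the first principal component of these same values. An interaction term compared the formate difference of codes 10 to 14 with that of codes 1 to 8. It was called lower in codes 10 to 14 for 0.0677% of all genes, 9 in number, and 1 member, Slc6a9, is among them with -1.66 on the log2 scale. The term was -1.53 for Chac1, -1.36 for Asns, -1.50 for Trib3 and -1.74 for Vldlr. As the members were chosen with these pair values known, nothing is read from that count. Called higher were 0% of genes, and 673 genes had an unadjusted p under 0.05. Among them were 8 members (Atf4, Trib3, Asns, Chac1, Slc6a9, Sesn2, Vldlr and Ddit4), and nothing is read from this count either.

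Per kilobase of the longest annotated transcript, Atf4 was the highest member, at 256 ± 20.02 CPM per kb with formate and 236 ± 41.2 with PBS (SD, n = 4 each). Ddit4 followed with 93.0 ± 60.6 with formate and 101 ± 86.9 with PBS, and then Asns with 81.2 ± 8.34 with formate and 39.6 ± 24.7 with PBS. Ddit4 and Asns do not differ beyond their spread. Trib3, Ddit3, Sesn2, Atf5 and Chac1 lay between 10.2 and 21.1 CPM per kb with formate, close enough that neighbours in this order overlap, and between 5.32 and 17.4 with PBS. Slc6a9 had 6.63 ± 0.688 CPM per kb with formate and 3.08 ± 1.69 with PBS. Vldlr was lowest, at 0.936 ± 1.04 with formate and 0.985 ± 1.25 with PBS.

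**Figure D4:**
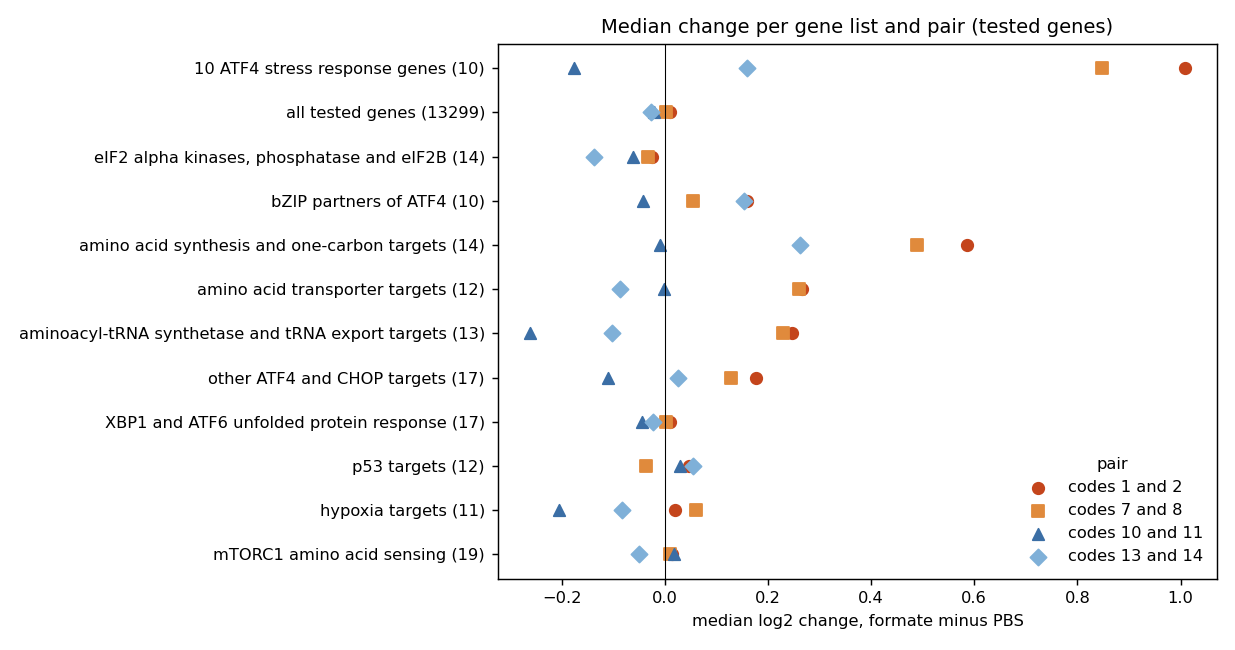
Median log2 difference of formate minus PBS (x axis) in each of the 4 pairs (symbols) for the members, for the lists of other stress response genes and for all genes tested. The amino acid synthesis list has medians of 0.59 and 0.49 in the pairs of codes 1 and 7, the largest after the members.

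Other genes were taken by list, 135 tested of 140, from the pathway and from other programmes (XBP1 and ATF6, p53, hypoxia and mTORC1 sensing). In the fit with the pairs as a block 13 passed higher and 8 lower, or 9.63% and 5.93% of them, against 5.35% and 7.52% of all genes (14 and 4 genes with scaling by library size only); 1, Cth, passed without the block. The calls below are those of single genes and not of a pathway. Of these 21 calls, 10 were ended by at least 1 of 5 other settings with the block (upper quartile scaling, library size only, no filter, GC offsets or DESeq2). Leaving out a pair of codes ended 14. Neither ended those of Atf3, Batf3, Cth, Egln1, Jun, Slc1a5 and Stc2, although DESeq2 gave Stc2 and Jdp2 no adjusted p. Values in the next paragraphs are log2 differences of formate minus PBS from the fit with the block. Of 14 amino acid synthesis and one-carbon genes, 1 rose, none fell and 13 did not pass, with pair medians of 0.59, 0.49, -0.01 and 0.26. Cth, which makes cysteine from cystathionine, rose by 1.33 on the log2 scale (SE 0.08). It measured 38.7, 40.8, 37.9 and 34.5 CPM with formate (codes 2, 8, 11 and 14) and 15.1, 12.9, 18.2 and 14.3 CPM with PBS (codes 1, 7, 10 and 13), without overlap and with pair values of 1.35, 1.66, 1.05 and 1.27. Unlike Asns, its PBS libraries of codes 10 and 13 lay near those of codes 1 and 7. By the signed difference of formate minus PBS, all 14 of these genes were higher in both pairs of codes 1 to 8 than in either of codes 10 to 14. The share of all genes was 22.3%. A signed comparison also counts genes that fell less in codes 1 to 8, such as Eprs1 (-0.06 and -0.05 against -0.28 and -0.33). The same count was 13 of 13 aminoacyl-tRNA synthetase and export genes, 10 of 12 transporters, 9 of 17 other ATF4 and CHOP targets, 8 of 17 XBP1 and ATF6 targets and 6 of 11 hypoxia targets. It was 6 of 14 eIF2 genes, 4 of 10 bZIP partners, 7 of 19 mTORC1 sensing genes and 2 of 12 p53 targets. The lists, like the members, were chosen with earlier results of these data known, so nothing is read from these counts. Psat1 and Phgdh of serine synthesis were 0.44 and 0.19 higher on the log2 scale and did not pass.

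Of 12 amino acid transporter genes, 1 rose and 11 did not pass; it was the glutamine transporter Slc1a5, by 0.27 (SE 0.05, edgeR adjusted p = 0.00316). Slc7a5 and Slc3a2, the subunits of a large neutral amino acid transporter, had 0.05 (SE 0.10) and 0.13 (SE 0.14) with the block and did not pass. Their values differed in sign by pair. In the pairs of codes 1, 7, 10 and 13 Slc7a5 had 0.30, 0.24, -0.22 and -0.13, and Slc3a2 had 0.47, 0.31, -0.22 and -0.05. Of 13 aminoacyl-tRNA synthetase and export genes, 1 fell (Eprs1, by 0.18, SE 0.05) and 12 did not pass (among them Gars1 at 0.11 and Nars1 at 0.05). Over the same pairs Gars1 had 0.40, 0.27, -0.27 and 0.04, and Nars1 had 0.34, 0.27, -0.33 and -0.10. Eprs1 was lost with upper quartile and library size scaling (edgeR adjusted p = 0.0580 and 0.0830). Among 10 bZIP partners of ATF4, 3 rose and 1 fell. Atf3, a stress-induced repressor, averaged 45.4 ± 2.03 CPM with formate and 33.98 ± 2.87 CPM with PBS (SD, n = 4 each), with no overlap, and rose by 0.42 (SE 0.06, edgeR adjusted p = 0.00200). Batf3 rose by 0.32. Jdp2 rose by 0.95, with set ratios of codes 10 to 14 over codes 1 to 8 of 2.03 with formate and 4.81 with PBS. Jdp2 rests on 16 and 14 counts in the PBS libraries of codes 1 and 7. Jun fell to 81.1 ± 6.79 CPM with formate, against 101 ± 8.83 CPM with PBS.

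Of 14 genes for the eIF2 kinases, phosphatase and exchange factor eIF2B, 1 rose (Eif2s1, the alpha subunit of eIF2, 0.16), 3 fell (the heme-regulated kinase Eif2ak1, -0.23, and the eIF2B subunits Eif2b1 and Eif2b5, -0.16 each) and 10 did not pass. With GC offsets Eif2s1 was 0.067 and was lost (edgeR adjusted p = 0.362), as was Eif2b5 (0.0740). Eif2b1 and Eif2b5 were also lost with upper quartile scaling (edgeR adjusted p = 0.0555 and 0.0790) and with library size only (0.0950 and 0.112). Of 17 other ATF4 and CHOP targets, 2 rose, 1 fell and 14 did not pass. Stc2, a secreted glycoprotein, rose by 1.29 (SE 0.16, edgeR adjusted p = 0.000799), to 5.07 ± 2.52 CPM with formate, against 2.15 ± 1.37 CPM with PBS (SD, n = 4 each). By code it had 2.44, 3.37, 7.20 and 7.26 CPM with formate and 1.03, 0.979, 3.73 and 2.86 CPM with PBS, higher with formate in every pair and higher in codes 10 to 14 in both groups. Map1lc3b rose by 0.16 and Atg7 fell by 0.29, both autophagy genes; Map1lc3b was lost with DESeq2 and the block (adjusted p = 0.0828). Of 17 XBP1 and ATF6 targets, 2 rose (Dnajb9, 0.33, and Ern1, 0.21) and 1 fell (Hsp90b1, -0.15). Dnajb9 was lost with GC offsets (edgeR adjusted p = 0.0976) and DESeq2, Ern1 with no filter (edgeR adjusted p = 0.0609) and DESeq2, and Hsp90b1 with upper quartile and library size scaling (edgeR adjusted p = 0.0713 and 0.0904). Of 12 p53 targets, 2 rose (Trp53inp1, 0.30, and Mdm2, 0.15), and the 19 genes of amino acid sensing by mTORC1 did not pass (Seh1l and Sesn3 at -0.07 each). With GC offsets Trp53inp1 was 0.15 (edgeR adjusted p = 0.132) and Mdm2 was lost (0.0659), and Mdm2 was lost also with no filter and with DESeq2. Without the block, the calls named here other than Cth were lost (edgeR adjusted p = 0.872 for Atf3 and 0.998 for the others).

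Of 11 hypoxia targets, 1 rose (Bnip3, 0.29), 1 fell (Egln1, -0.24) and 9 did not pass. All 11 had every library of codes 10 to 14 above every library of codes 1 to 8, as had the members Ddit3, Vldlr and Ddit4, against 16% of all genes. Bnip3, a mitochondrial receptor for autophagy, measured 23.0, 65.5, 411 and 293 CPM with formate (codes 2, 8, 11 and 14) and 18.1, 52.8, 394 and 215 CPM with PBS (codes 1, 7, 10 and 13). The part of the hypoxia targets' difference in the members' values was not tested.

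By the root mean square of the difference in pair values over the 4 pairs, among 9154 genes, Pck2, the mitochondrial form of phosphoenolpyruvate carboxykinase, was closest to Asns (0.154), to Slc6a9 (0.232) and to Chac1 (0.303). Pck2 measured 91.1, 105, 102 and 105 CPM with formate and 18.8, 29.4, 98.7 and 60.3 CPM with PBS, in the same order of codes. As with Asns, its formate libraries were level and its PBS libraries of codes 1 and 7 were low. Pycr1 of proline synthesis and Gpt2, an alanine aminotransferase, were among the 4 closest to each of the 3 genes. The cationic amino acid transporter Slc7a3 was among those of Asns (0.413) and Slc6a9 (0.441), and Eif4ebp1, an inhibitor of translation initiation, among those of Chac1 (0.588). All of these genes are in the lists above. Pck2, Pycr1 and Gpt2 are amino acid synthesis genes there, Slc7a3 is a transporter and Eif4ebp1 is an other ATF4 and CHOP target. None of them passed with the block.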

How the data were processed

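Per the labels' protocols, RNA was made into libraries with a stranded mRNA kit and sequenced as read pairs. The submitters' processing notes name Trimmomatic, MultiQC, kallisto and the builds GRCm38 and mm10, without versions; the transcriptome release and the strand setting are not given by these sources. The authors deposited 1 table of estimated counts per gene, that is expected counts, neither normalised nor pooled. Among values above 0, 56.7% had a decimal part; rounding to the nearest count came first. Genes without a symbol (8884) were kept under their identifiers. GENCODE M21 (GRCm38) supplied coordinates, transcript length and GC content for 34581 identifiers.

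Groups follow the treatment label. Whether replicates are separate animals or cultures is not in the labels: p-values here reflect spread among the samples at hand, and that spread may be technical. No 2 libraries of a group agreed within sampling noise (smallest chi-square per degree of freedom 22.0). The test was that of edgeR 4.0.16 under R 4.3.3 (TMM, filterByExpr, quasi-likelihood test; an adjusted p, by Benjamini-Hochberg over 13299 genes, under 0.05), without and with the neighbouring title codes as a replicate block, and with an interaction of formate with library set. SEs are the log2 difference divided by the square root of F. DESeq2 1.42.0, other scalings and filters, GC offsets, fits within sets and fits without 1 library or 1 pair were alternatives. Pair differences use log2 CPM with a prior count of 2. The steps were tested on simulated data that held no pair or library set difference apart from the imposed formate changes. That test does not show how the fits behave with the set difference seen here. Depth of at least 29361986 counts keeps counting error small except where a gene has few counts. Such genes include Vldlr in codes 1 to 8. Jdp2 (16 and 14 counts) and Stc2 (38 and 29 counts) are also low in the PBS libraries of codes 1 and 7. A value of 3 counts equals 0.0728 to 0.101 CPM.

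The pairing comes from the title codes. Deviations from the group means correlated by 0.369 to 0.656 within the 4 pairs, all over 0.1, and by -0.614 to 0.373 between libraries of different pairs, of which 4, all within a set, were over 0.1. The ranges overlap: codes 2 and 7, not neighbours, gave 0.373, and the neighbours 8 and 7 gave 0.369. These values do not tell pairing from library set in every pair, and no block of set alone was fitted. Values with the block are given where they change a call.

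The members and the lists were chosen with earlier results of these data known, and no member's formate difference is offered as independent support. Other genes are named as those of each list that passed with the block (up to 4, by smallest p) or, where fewer than 2 did, the 2 with the highest mean CPM, as nearest in pair values to Asns, Slc6a9 and Chac1 (4 each, mean of at least 5 CPM), or because they passed the interaction test; the last were named after their values were seen. Sequences are from RefSeq tables.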

Additional observations from a re-analysis of the deposited data

Results flagged for a closer look

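Asns in the formate libraries has its lowest sample, code 2 at 138 CPM, far from the other 3: the gap to the nearest is 0.947 of the whole range. Of 20 groups examined, chance flags about 1 in 20.

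The formate difference of Slc6a9 was lower in codes 10 to 14 than in codes 1 to 8, by -1.66 on the log2 scale, which placed it among the 9 genes called for such a difference; it was chosen with these pair values known, so this is a description and not a test. Vldlr and Ddit4 were higher with formate in both pairs of codes 1 to 8 and lower in both of codes 10 to 14, with differences of -1.74 and -0.53 between the sets, which were not among those calls.

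Of the 135 genes of the other lists, 4 passed the interaction test of such a difference. No label names the sets, which part on the first principal component of these same values. The lists were chosen with earlier results of these data known. The adjusted p values below therefore describe the split and are no independent support. The cystine transporter Slc7a11 differed by -2.68 (edgeR adjusted p = 0.00125), with 5.54 and 8.12 CPM in formate and 8.45 and 7.76 CPM in PBS libraries of codes 10 to 14, and 8.27 and 15.4 CPM in formate and 1.43 and 3.07 CPM in PBS libraries of codes 1 to 8. Gpt2 differed by -1.36 (edgeR adjusted p = 0.00384), Vegfa by -0.87 (edgeR adjusted p = 0.0353) and Aldh18a1, of proline synthesis, by -0.54 (edgeR adjusted p = 0.0363). The cause was not tested.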

How the results depend on the processing

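The count of genes called without pairing was 1 and stayed 1 with RLE or library size scaling and with no filter; it was 12 with DESeq2, 0 to 1 without 1 library (1 without the PBS library of code 10, 0 without each of the others), and 0 within codes 1 to 8 or within codes 10 to 14. With the replicate block it was 1711 (711 higher, 1000 lower), with DESeq2 and the block 1532 (397 and 1135), with upper quartile scaling 1568 (832 and 736), with library size only 1587 (1048 and 539), with no filter 2277 and with GC offsets 1360 (402 and 958). Without the pair of codes 1 and 2, 7 and 8, 10 and 11, or 13 and 14 the block gave 337, 722, 1371 and 502. Interaction calls were 9, 13 with library size only and 72 with no filter. List calls were 1, 21 with the block and 18 with the block and library size only. The causes were not tested.

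Of 240 alternative values of the members, 196 kept direction and side of the threshold, 8 passed it and 36 turned sign. Those that passed were Asns and Slc6a9 (DESeq2 with the block), Trib3, Asns, Chac1, Slc6a9 and Sesn2 (block with no filter, where the SE of Asns was 0.05 in place of 0.42), and Sesn2 with the block and without codes 10 and 11 (0.41). Asns, Chac1, Slc6a9 and Sesn2 kept their sign in all. Within codes 10 to 14, Atf4 was -0.082, Atf5 -0.0071 and Trib3 -0.10. Ddit3 turned to 0.024 and 0.065 with the block without codes 7 and 8 or 10 and 11. Vldlr, -0.08 without pairing, was 0.21 with the block, 0.64 with DESeq2 and the block, 0.24, 0.26, 0.19 and 0.18 with the block and upper quartile, library size, no filter or GC offsets, 0.078, 0.044, 0.64 and 0.41 without each pair in turn, and 1.61 within codes 1 to 8. Ddit4, -0.12 without pairing, was 0.050 with the block, 0.046 with DESeq2 and the block, 0.070, 0.087, 0.041 and 0.089 under the same 4 settings, 0.19 and 0.087 without codes 10 and 11 or 13 and 14, and 0.32 within codes 1 to 8. Leaving out 1 library gave 0.78 to 1.49 for Asns, 0.69 to 1.19 for Chac1, 0.87 to 1.36 for Slc6a9, 0.12 to 0.84 for Trib3, 0.083 to 0.40 for Sesn2, 0.0050 to 0.18 for Atf4, -0.0042 to 0.18 for Atf5, -0.25 to 0.20 for Ddit3, -1.05 to 1.14 for Vldlr and -0.62 to 0.62 for Ddit4. The highest values of Asns, Ddit3, Vldlr and Ddit4 came without the PBS library of code 10, and those of Chac1 and Slc6a9 without the PBS library of code 13.

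Of 888 values of other named genes, 704 kept both, 155 passed, 9 were lost and 20 turned sign. Without codes 1 and 2 or 7 and 8 with the block, Slc7a5 was -0.027 and -0.012, Nars1 -0.045 and -0.024, and Aldh18a1 -0.025 and -0.016. Within codes 10 to 14, Slc7a5 was -0.16, Slc3a2 -0.12, Gars1 -0.10, Nars1 -0.19, Aldh18a1 -0.19 and Slc7a11 -0.23. Without 1 library, Slc7a5 ranged from -0.023 to 0.16, Nars1 from -0.011 to 0.14, Egln1 from -0.54 to 0.044, Bnip3 from -0.41 to 1.07 and Sesn3 from -0.21 to 0.066. Depth limits Vldlr in codes 1 to 8 (11 counts in its lowest library), and there also Jdp2 (14 counts) and Stc2 (29 counts).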
